A study of Mus musculus with 13 samples.

Results

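The 9 genes described here, Lat, Nfatc2ip, Rabep2, Atp2a1, Sh2b1, Tufm, Atxn2l, Sgf29 and Nupr1, are protein-coding neighbours of Spns1 on mouse chromosome 7. They were taken by symbol from a table of estimated counts that holds 35013 gene symbols, and each of the 9 had a row in it. Spns1 encodes spinster homolog 1, a transporter of the lysosomal membrane, and it is the gene floxed in this study. The data are 13 RNA libraries from the kidneys of female mice, whose strain the methods give as C57Bl6. RNA made in a short window was tagged with 4-thiouracil through the enzyme UPRT, captured on streptavidin beads and selected for poly-A tails before sequencing. All mice carried a tamoxifen-inducible Cre expressed from the megalin gene (Megalin3'Cre-Ert) and 1 Uprt allele that Cre switches on, and the methods state that tamoxifen was given to all in parallel. The 4 libraries labelled Spns1 KO came from mice that were Spns1 flox/flox. The 5 WT libraries and the 4 FeO (iron overload) libraries came from littermates. The methods give both as Spns1 flox/+, and the sample labels write Spns1 WT for them. Iron sucrose holding 12 mg of iron was injected into the peritoneum of FeO mice daily for 3 days, and their kidneys were taken 1 week later. No source used here gives the age of the mice. Tag and deletion both depend on the megalin Cre, so the libraries describe cells of the megalin domain as far as the capture was specific.

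Neighbouring genes of this kind need not share a function, and these 9 do not form a pathway. Tufm makes the elongation factor that brings aminoacyl-tRNA to the ribosome of the mitochondrion. Nupr1 makes a small stress-induced nuclear protein, and Sgf29 makes a reader of methylated histone H3 within the SAGA and ATAC acetyltransferase complexes. Nfatc2ip makes a nuclear protein with SUMO-like domains that binds NFAT factors, and Atxn2l makes an RNA-binding relative of ataxin-2 found in stress granules. Lat and Sh2b1 make signalling adaptors, the former in T cells, mast cells and platelets and the latter at insulin, leptin and growth factor receptors. Rabep2 makes a Rab5 and Rab4 effector of early endosomes. Atp2a1 makes SERCA1, the calcium pump of fast skeletal muscle. The study compared a genetic model and an injected iron model of iron overload with control mice, and for these genes the same comparisons give their levels on either side of the floxed locus.

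In GRCm38 (GENCODE M21 annotation) Spns1 lies at chr7:126370060-126377450 on the minus strand. Lat lies on its lower-coordinate side at chr7:126363824-126369570, only 490 bases away and on the same strand, so that the 5′ end of Lat faces the 3′ end of Spns1. The other 8 genes lie on the higher-coordinate side. Nfatc2ip (chr7:126382854-126396737, minus strand) is the nearest of them at 5.40 kb. Rabep2 (chr7:126428759-126449245, plus strand) is 51.3 kb away and Atp2a1 (chr7:126445858-126463108, minus strand) is 68.4 kb away. These 2 genes run into each other from opposite strands and share 763 exonic bases, which is 21.9% of the exonic bases of Atp2a1 and 14.3% of those of Rabep2. Sh2b1 (chr7:126466994-126475424, minus strand) is 89.5 kb away. Tufm (chr7:126487361-126490731, plus strand) and Atxn2l (chr7:126491708-126503437, minus strand) face each other tail to tail at 109.9 and 114 kb. Nupr1 (chr7:126623249-126630861, minus strand) and Sgf29 (chr7:126649309-126672925, plus strand) are the farthest, at 246 and 272 kb. The counts take in whole genes, and no strand setting is given in the sources used here, so reads from the Rabep2 and Atp2a1 overlap cannot be told apart. The same holds for 13.4% of the exonic bases of Nfatc2ip, which lie over Gm45141, and for 9.38% and 3.39% of those of Sgf29, which lie over 2510046G10Rik and Sult1a1.

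The sequences below are the 250 bases in front of the RefSeq start site (GRCm38.p6) of the 5 genes that were called in at least 1 comparison, and of Lat, the gene next to Spns1. They are shown because the groups of genes that moved one way can be set beside the promoter motifs they hold. Capitals mark matches, on either strand, to 6 motifs: the E-box of the lysosomal CLEAR element (CACGTG), the antioxidant response element core (TGACNNNGC), the C/EBP-ATF composite core (TGATGNAA), the cAMP response element (TGACGTCA), the GC box (GGGCGG) and the CCAAT box (CCAAT). Each is written 5′ to 3′ on the gene's own strand.
Tufm (chr7:126487105-126487354, plus strand): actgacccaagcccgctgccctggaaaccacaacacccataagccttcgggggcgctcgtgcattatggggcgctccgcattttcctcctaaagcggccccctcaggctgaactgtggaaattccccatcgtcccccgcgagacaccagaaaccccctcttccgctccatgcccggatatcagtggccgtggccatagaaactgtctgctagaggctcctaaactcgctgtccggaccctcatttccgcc
Sgf29 (chr7:126649059-126649308, plus strand): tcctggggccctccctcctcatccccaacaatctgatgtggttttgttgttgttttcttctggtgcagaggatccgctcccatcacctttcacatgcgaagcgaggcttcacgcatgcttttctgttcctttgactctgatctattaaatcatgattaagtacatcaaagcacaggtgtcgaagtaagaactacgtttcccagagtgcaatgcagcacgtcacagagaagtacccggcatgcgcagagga
Nupr1 (chr7:126625471-126625720, minus strand): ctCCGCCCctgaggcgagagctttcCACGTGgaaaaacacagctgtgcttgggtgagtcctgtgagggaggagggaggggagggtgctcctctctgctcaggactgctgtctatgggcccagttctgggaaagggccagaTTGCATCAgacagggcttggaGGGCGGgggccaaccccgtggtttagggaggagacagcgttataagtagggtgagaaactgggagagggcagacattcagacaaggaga
Nfatc2ip (chr7:126396738-126396987, minus strand): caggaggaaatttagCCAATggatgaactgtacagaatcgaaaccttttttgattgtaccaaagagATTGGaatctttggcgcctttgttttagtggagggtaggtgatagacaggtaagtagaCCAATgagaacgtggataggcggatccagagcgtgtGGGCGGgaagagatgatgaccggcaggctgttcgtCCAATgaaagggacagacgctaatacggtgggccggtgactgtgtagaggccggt
Atxn2l (chr7:126503438-126503687, minus strand): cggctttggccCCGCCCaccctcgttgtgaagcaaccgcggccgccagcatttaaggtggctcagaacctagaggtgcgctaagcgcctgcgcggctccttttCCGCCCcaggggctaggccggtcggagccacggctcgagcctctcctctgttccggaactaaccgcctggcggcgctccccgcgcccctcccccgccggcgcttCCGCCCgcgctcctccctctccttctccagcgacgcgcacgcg
Lat (chr7:126369569-126369818, minus strand): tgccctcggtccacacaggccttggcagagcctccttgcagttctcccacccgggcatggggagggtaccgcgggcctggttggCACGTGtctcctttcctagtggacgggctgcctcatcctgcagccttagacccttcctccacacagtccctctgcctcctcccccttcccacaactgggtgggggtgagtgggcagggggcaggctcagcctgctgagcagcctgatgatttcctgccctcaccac

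The promoters of the 3 genes that rose in FeO held different motifs. Nupr1 had the E-box at position -225 from its start, the C/EBP-ATF core at position -110 and 2 GC boxes, while the windows of Tufm and Sgf29 matched none of the 6 motifs. Of the 2 genes that fell in FeO, Nfatc2ip had 4 CCAAT boxes and 1 GC box. Atxn2l has 2 start sites in RefSeq, the first (printed) with 3 GC boxes and the second with 3 CCAAT boxes and 1 GC box, so GC and CCAAT boxes were found in both genes. Lat held the E-box at position -166. Rabep2 was the only member with the antioxidant core, at position -123. It also held 4 GC boxes and 1 CCAAT box though it was called in no comparison, so this pair was not confined to the genes that fell. For comparison, in 32851 RefSeq promoter windows of 300 bases the E-box was found in 7.15%, the antioxidant core in 12.39%, the C/EBP-ATF core in 3.97%, the cAMP element in 1.79%, the GC box in 35.66% and the CCAAT box in 37.41%. The searched windows hold 50 bases after the start as well as the 250 before it. Their GC content ran from 50.3% in Sgf29 and 51.3% in Nfatc2ip to 61.7% in Tufm and 73.0% in the first Atxn2l promoter. A match is a string of letters, not a measured binding site.

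Library totals were 31809135 to 71296474 counts for Spns1 KO, 23068023 to 37362311 for WT and 25986133 to 29981814 for FeO. Spns1 itself was at 39.0, 44.5, 36.6 and 59.0 CPM in Spns1 KO 1 to 4 by label, at 57.2, 61.4, 57.6, 39.2 and 62.9 CPM in WT 1 to 5, and at 58.7, 56.7, 39.0 and 45.9 CPM in FeO 1 to 4. CPM are counts per 1e6 counts of the library, with TMM scaling of its size. The groups overlapped, and the libraries labelled Spns1 KO differed from WT by -0.31 on the log2 scale (SE 0.18, edgeR adjusted p = 0.225). The floxed part is exon 3 alone and the count covers the whole gene, so the counts do not check the deletion. The study itself reported loss of Spns1 RNA and of SPNS1 protein in kidneys of Megalin3'Cre-Ert mice that were Spns1 flox/flox. The 10 proximal tubule markers summed to 6768 to 7696 CPM in the libraries labelled Spns1 KO, 3498 to 4894 CPM in WT and 1955 to 4801 CPM in FeO, so the labelled tissue was present throughout, and the part of this difference in the results below was not tested. In such bulk RNA, fewer cells of a type and less RNA per cell cannot be told apart. Libraries also differed in the balance of short and long transcripts. Against the WT mean, the median log2 level of 3727 genes with transcripts under 2000 bases minus that of 5994 genes with transcripts over 4000 bases was 0.66, 0.81, 0.90 and 0.34 in Spns1 KO 1 to 4 and 0.22, 0.13, -0.25, -0.35 and 0.27 in WT 1 to 5. It was 0.93, 0.78, 1.14 and 0.97 in FeO 1 to 4, above every WT library.

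All 9 genes passed the filter on low counts. A gene was called when its adjusted p was under 0.05 and its log2 fold change beyond 0.5 in either direction. Between the libraries labelled Spns1 KO and WT, Tufm and Nupr1 rose and Nfatc2ip fell, and the other 6 were not called. The 2 calls upward are 22.2% of the 9 genes, against 14% of the 16468 genes tested, and the 1 call downward is 11.1%, against 7.55%. Between FeO and WT, Tufm, Nupr1 and Sgf29 rose and Nfatc2ip and Atxn2l fell, or 33.3% and 22.2% of the 9, against 22.4% and 19.7% of all genes. Directly between Spns1 KO and FeO, Atxn2l was higher in Spns1 KO and Sgf29 was lower, 11.1% each way, against 6.76% and 8.1% of all genes. With 9 genes, a single call is 11.1% of the list, so these shares lie near the background. The median log2 fold change of the 9 was 0.25, 0.11 and 0.13 in the 3 comparisons, against -0.05, -0.01 and 0.03 over all genes tested. The comparisons of Spns1 KO and of FeO share their WT libraries and are not independent of each other.

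**Figure D1:**
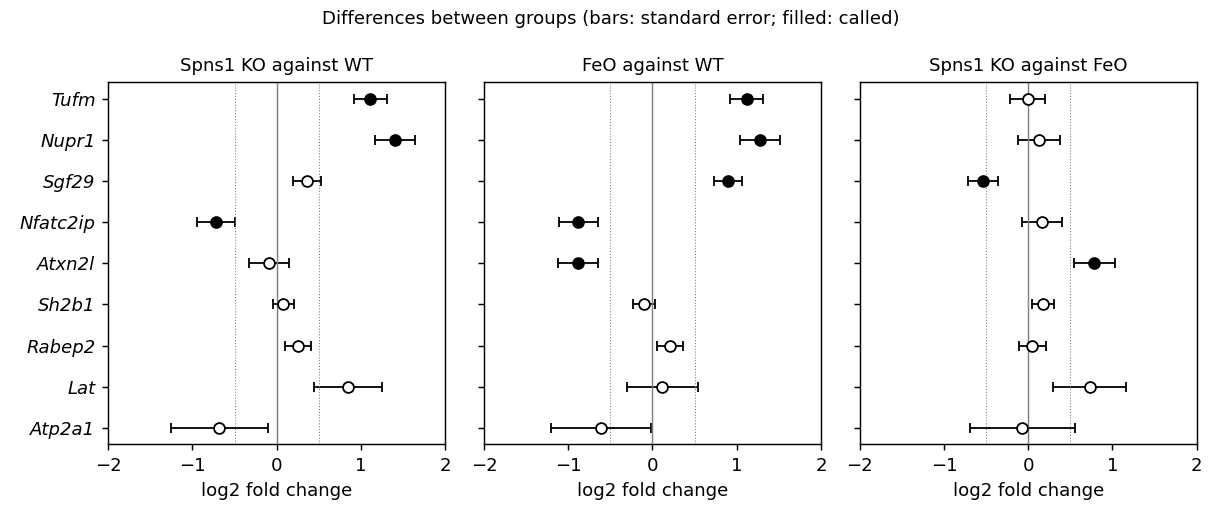
Log2 fold change (horizontal axis) of each of the 9 genes in the 3 comparisons, with bars of 1 standard error and filled points for called genes. Tufm and Nupr1 lie near or above 1 against WT in both left panels, and Atxn2l and Sgf29 are the filled points of the right panel.

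Tufm, the mitochondrial elongation factor, rose about as much in each model. It was at 28.4, 24.7, 21.4, 21.5 and 24.9 CPM in WT 1 to 5. The libraries labelled Spns1 KO 1 to 4 held 59.3, 53.8, 64.2 and 31.7 CPM, and FeO 1 to 4 held 64.4, 39.3, 54.7 and 51.5 CPM. Every Spns1 KO and every FeO library lay above every WT library, and Spns1 KO 4 lay closest to WT. The mean rose from 24.2 ± 2.88 CPM (SD, n = 5) in WT to 52.2 ± 14.4 CPM (SD, n = 4) in Spns1 KO, a log2 fold change of 1.11 (SE 0.19, edgeR adjusted p = 0.00135), and to 52.5 ± 10.4 CPM (SD, n = 4) in FeO, a log2 fold change of 1.12 (SE 0.19, edgeR adjusted p = 0.000709). Between Spns1 KO and FeO the log2 difference was -0.01 (SE 0.20, edgeR adjusted p = 0.987). Of the distinct 31-base words of Tufm transcripts, 58.2% are also found in the pseudogene Gm9755, so reads could be split between gene and pseudogene. Gm9755 was listed with 0 to 19 counts per library, at most 1.80% of the Tufm count of the same library.

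The partners of Tufm in mitochondrial translation and RNA handling were taken as a list of 23 genes, of which 22 were tested. In Spns1 KO against WT 8 of the 22 rose (36.4%, against 14% of all genes tested), with a list median log2 fold change of 0.28 against -0.05 over all genes. In FeO against WT 7 rose (31.8%, against 22.4% of all genes), with a median of 0.23 against -0.01. The lists below are to be read against the same shares of all genes, with 14% rising and 7.55% falling in Spns1 KO, and 22.4% rising and 19.7% falling in FeO. The part of the short-to-long offset in the share of this or any other list was not tested. Slirp, an RNA-stabilising partner of Lrpprc, rose by a log2 fold change of 1.44 in Spns1 KO (SE 0.27, edgeR adjusted p = 0.00201) and 1.45 in FeO (SE 0.27, edgeR adjusted p = 0.000919). Hsd17b10, a subunit of the mitochondrial RNase P, rose by 1.21 and 1.32 on the log2 scale in the same comparisons (SE 0.21 in each, edgeR adjusted p = 0.0012 and 0.00051). Pdf, the mitochondrial peptide deformylase, rose by 1.29 in each (SE 0.30, edgeR adjusted p = 0.00732 and 0.00359).

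Nupr1, the stress-induced nuclear protein, gave the largest fold change of the 9 genes against WT in each model. Its values in WT 1 to 5 were 8.28, 7.61, 7.56, 7.63 and 11.3 CPM. The libraries labelled Spns1 KO 1 to 4 had 21.5, 25.1, 21.5 and 21.3 CPM, all above WT and close together. The FeO libraries 1 to 4 were spread wider, at 22.2, 11.2, 16.6 and 31.9 CPM, and FeO 2 lay just under WT 5. The mean was 8.47 ± 1.59 CPM (SD, n = 5) in WT, 22.4 ± 1.84 CPM (SD, n = 4) in Spns1 KO and 20.5 ± 8.85 CPM (SD, n = 4) in FeO. The log2 fold change was 1.40 in Spns1 KO against WT (SE 0.24, edgeR adjusted p = 0.00118) and 1.27 in FeO against WT (SE 0.24, edgeR adjusted p = 0.001). The difference between Spns1 KO and FeO was 0.13 on the log2 scale (SE 0.25, edgeR adjusted p = 0.754). The coefficient of variation was 8.22% in Spns1 KO and 43.3% in FeO.

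Known partners and targets of the NUPR1 protein moved each way. Of 14 tested, 1 rose and 2 fell in Spns1 KO against WT (7.14% and 14.3%, median log2 fold change 0.06), and 3 rose and 2 fell in FeO against WT (21.4% and 14.3%, median -0.06). Cdkn1a, the p21 cell cycle inhibitor, fell by 1.98 on the log2 scale in Spns1 KO (SE 0.39, edgeR adjusted p = 0.00263). Bnip3, a mitophagy receptor, rose by 0.64 in Spns1 KO (SE 0.18, edgeR adjusted p = 0.022) and 1.20 in FeO (SE 0.19, edgeR adjusted p = 0.000482). Ep300, the acetyltransferase that NUPR1 binds, fell by 0.61 and by 1.50 on the log2 scale (SE 0.21 and 0.22, edgeR adjusted p = 0.046 and 0.000408). Nupr1 is also a target of the integrated stress response, in which ATF4 drives genes of amino acid supply. Of 27 such genes tested, 1 rose and 4 fell in Spns1 KO against WT (3.70% and 14.8%, median -0.14), and 5 rose and 3 fell in FeO against WT (18.5% and 11.1%, median -0.32). Slc7a11 and Slc7a5, both amino acid transporters, fell by 1.80 and 1.45 on the log2 scale in Spns1 KO (SE 0.33 and 0.36, edgeR adjusted p = 0.00172 and 0.00993). In FeO, Asns and Atf5 rose by 1.17 and 1.20 on the log2 scale (SE 0.32 and 0.30, edgeR adjusted p = 0.00879 and 0.00522), and Ddit4 fell by 3.05 (SE 0.82, edgeR adjusted p = 0.00801).

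Sgf29, the histone reader, was called in FeO and not in Spns1 KO. It was at 8.79, 8.10, 6.58, 7.31 and 8.03 CPM in WT 1 to 5 and at 11.1, 9.63, 11.0 and 8.07 CPM in Spns1 KO 1 to 4. FeO 1 to 4 had 17.4, 12.8, 15.2 and 12.4 CPM, each above every library of the other groups. The mean was 7.76 ± 0.843 CPM (SD, n = 5) in WT, 9.96 ± 1.43 CPM (SD, n = 4) in Spns1 KO and 14.4 ± 2.34 CPM (SD, n = 4) in FeO. FeO rose against WT by a log2 fold change of 0.89 (SE 0.16, edgeR adjusted p = 0.000883), whereas Spns1 KO against WT gave 0.36 (SE 0.16, edgeR adjusted p = 0.125). The direct difference, -0.54 in Spns1 KO against FeO (SE 0.17, edgeR adjusted p = 0.0481), was called by a narrow margin. Leaving out 1 library at a time ended that last call in 10 of 13 cases (any of Spns1 KO 1 to 4, WT 1, 2, 3 or 5, or FeO 1 or 3), with log2 differences of -0.61 to -0.43. After a correction of every library for the length and GC content of transcripts, the FeO difference from WT was 0.40 (edgeR adjusted p = 0.0466). It was no longer called because it lay under the log2 limit of 0.5. The Spns1 KO difference from WT was then -0.10. Sgf29 has a short transcript of 1312 bases.

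Among 30 other SAGA and ATAC subunits, all tested, 2 rose and 4 fell in Spns1 KO against WT (6.67% and 13.3%) and 7 rose and 8 fell in FeO against WT (23.3% and 26.7%), with medians of -0.19 in each. In FeO, Supt3, a core SAGA subunit, rose by 1.56 on the log2 scale (SE 0.26, edgeR adjusted p = 0.000617), and Atxn7, of the deubiquitinase module, fell by 1.25 (SE 0.21, edgeR adjusted p = 0.000646). Usp22, the deubiquitinase itself, fell by 0.67 in Spns1 KO (SE 0.14, edgeR adjusted p = 0.004), and Kat2a, the catalytic acetyltransferase, rose by 0.66 (SE 0.18, edgeR adjusted p = 0.0183). Subunits thus moved each way, and the FeO shares lay near the 22.4% rising and 19.7% falling of all genes tested.

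Nfatc2ip, the nearest of the neighbours on the higher-coordinate side, was lower in both models. It was at 16.4, 17.4, 17.3, 13.3 and 20.3 CPM in WT 1 to 5 and at 7.60, 11.7, 8.35 and 13.5 CPM in Spns1 KO 1 to 4. FeO 1 to 4 had 7.12, 12.4, 6.59 and 10.7 CPM. All FeO libraries lay under all WT libraries, while Spns1 KO 4 lay just above WT 4. From 16.9 ± 2.49 CPM (SD, n = 5) in WT the mean fell to 10.3 ± 2.78 CPM (SD, n = 4) in Spns1 KO and 9.20 ± 2.80 CPM (SD, n = 4) in FeO. The log2 fold change was -0.72 in Spns1 KO (SE 0.23, edgeR adjusted p = 0.0323) and -0.88 in FeO (SE 0.23, edgeR adjusted p = 0.00653). For Spns1 KO the call ended in 7 of 13 fits that left out 1 library (any of Spns1 KO 1, 2 or 3 or WT 1, 2, 3 or 5), with log2 fold changes of -0.87 to -0.60, while the FeO call held in all 13. The Spns1 KO to FeO difference was 0.16 (SE 0.24, edgeR adjusted p = 0.666).

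NFAT factors and the SUMO pathway were read beside Nfatc2ip as a list of 22 tested genes. In Spns1 KO against WT 1 rose and 5 fell (4.55% and 22.7%, median log2 fold change -0.23), and in FeO against WT 5 rose and 9 fell (22.7% and 40.9%, median -0.30). Nfat5 fell by 0.74 and Nfatc1 by 0.67 on the log2 scale in Spns1 KO (SE 0.24 and 0.23, edgeR adjusted p = 0.0379 and 0.0493), and Sae1, a subunit of the SUMO-activating enzyme, rose by 0.78 (SE 0.19, edgeR adjusted p = 0.00854). In FeO, Sumo2 rose by 1.18 (SE 0.21, edgeR adjusted p = 0.000799), whereas Slf2 and Smc5, both of the SMC5/6 pathway, fell by 1.43 and 1.08 on the log2 scale (SE 0.20 and 0.17, edgeR adjusted p = 0.000393 and 0.000551).

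Atxn2l, the ataxin-2 relative, was the most abundant of the 9 genes, and it fell in FeO against WT. WT 1 to 5 had 321, 329, 259, 201 and 259 CPM. The libraries labelled Spns1 KO 1 to 4 had 210.5, 255, 199 and 362 CPM, on both sides of the WT range, and FeO 1 to 4 had 113, 185, 108 and 189 CPM, all under it. The mean was 274 ± 52.7 CPM (SD, n = 5) in WT, 257 ± 74.2 CPM (SD, n = 4) in Spns1 KO and 149 ± 44.4 CPM (SD, n = 4) in FeO. FeO fell against WT by 0.88 on the log2 scale (SE 0.24, edgeR adjusted p = 0.00811), and Spns1 KO against WT gave -0.09 (SE 0.23, edgeR adjusted p = 0.795). The direct difference between Spns1 KO and FeO was 0.79 (SE 0.25, edgeR adjusted p = 0.0431), and every Spns1 KO library lay above every FeO library. That call was lost in 9 of 13 fits that left out 1 library (any of Spns1 KO 1, 2 or 4, WT 1, 2, 3 or 5, or FeO 1 or 3), with differences of 0.58 to 0.92. Of 18 tested genes of the ataxin-2 family and stress granules, 2 fell in Spns1 KO against WT (11.1%) and 3 in FeO against WT (16.7%), with medians of -0.13 and -0.21. Larp4, a poly-A binding protein partner, fell by 0.74 and 1.27 on the log2 scale (SE 0.18 in each, edgeR adjusted p = 0.00829 and 0.000393), and Atxn2, the founding member, fell by 0.55 in FeO (SE 0.14, edgeR adjusted p = 0.00519).

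Tufm and Atxn2l, whose 3′ ends face each other, moved apart in FeO. The ratio within a library needs no scaling between libraries. Tufm had 8.84, 7.50, 8.28, 10.7 and 9.64 counts per 100 counts of Atxn2l in WT 1 to 5. It had 28.2, 21.1, 32.2 and 8.75 in Spns1 KO 1 to 4, where the last lay inside the WT range. FeO 1 to 4 had 56.7, 21.2, 50.9 and 27.2, all above WT. In the ratio as in the short-to-long offset given above, FeO 2 and Spns1 KO 4 were the lowest of their groups, but the orders differed elsewhere, since WT 4 had the lowest offset and the highest ratio of WT. Tufm has a transcript of 1754 bases and Atxn2l of 4023 bases, and the part of the offset in the ratio was not tested. After the correction for length and GC content, the calls of Tufm in both models and of Nfatc2ip and Atxn2l in FeO were kept. The log2 fold change of Tufm against WT was then 0.75 in each model, in place of 1.11 in Spns1 KO and 1.12 in FeO. The call of Nfatc2ip in Spns1 KO was lost, at -0.65 (edgeR adjusted p = 0.0522).

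**Figure D2:**
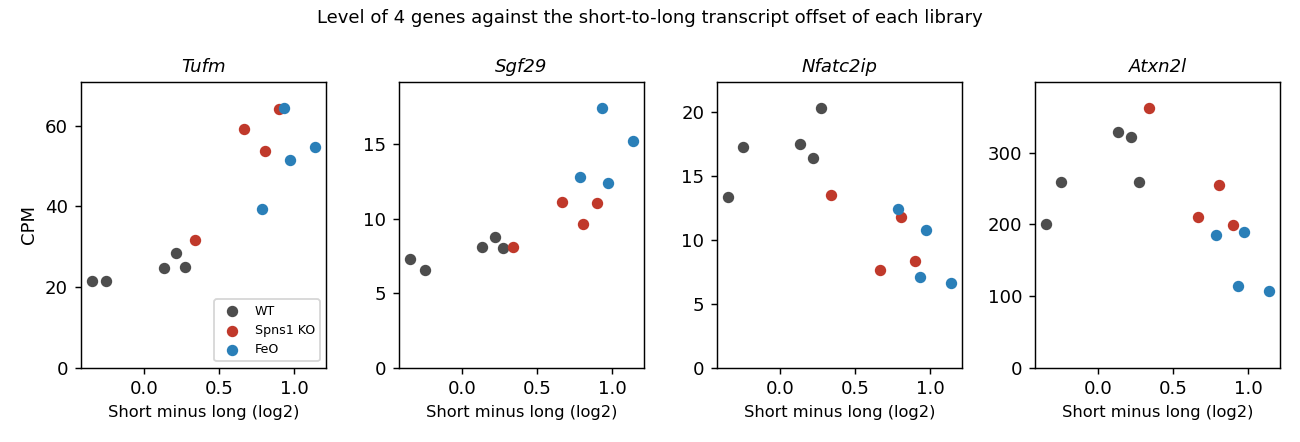
CPM (vertical axis) of Tufm, Sgf29, Nfatc2ip and Atxn2l in each of the 13 libraries against the short minus long transcript offset of the library (log2, horizontal axis), coloured by group. The library labelled Spns1 KO 4, at an offset of 0.34, lies beside the WT libraries in the panels of Tufm, Sgf29 and Nfatc2ip.

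Sh2b1, an adaptor of insulin and leptin receptors, was not called in any comparison. Its WT values were 94.8, 93.7, 90.2, 81.6 and 86.6 CPM, its Spns1 KO values 99.7, 95.5, 93.7 and 88.7 CPM, and its FeO values 93.5, 93.4, 69.1 and 77.9 CPM. The 3 groups overlapped, and the coefficients of variation were 6.06%, 4.81% and 14.5%. The log2 fold change was 0.08 in Spns1 KO against WT (SE 0.13, edgeR adjusted p = 0.678), -0.10 in FeO against WT (SE 0.13, edgeR adjusted p = 0.545) and 0.18 in Spns1 KO against FeO (SE 0.13, edgeR adjusted p = 0.377). Around it, 18 genes of the SH2B family and the receptor kinase pathway were tested, of which 1 rose and 6 fell in Spns1 KO against WT and 1 rose and 9 fell in FeO against WT. The share that fell in Spns1 KO was 33.3%, against 7.55% of all genes tested, and the 9 of 18 in FeO compare with 19.7%, with list medians of -0.33 and -0.50. Stat5a fell by 1.05 and 1.17 on the log2 scale (SE 0.27 in each, edgeR adjusted p = 0.0113 and 0.00308), Stat3 by 0.87 in Spns1 KO (SE 0.18, edgeR adjusted p = 0.00382), and Irs2, a docking protein of the insulin receptor, by 1.60 in FeO (SE 0.37, edgeR adjusted p = 0.00343).

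Rabep2, the early endosome tether, was not called in any comparison. It was at 22.1, 21.9, 20.4, 19.6 and 22.3 CPM in WT, at 26.3, 27.5, 25.4 and 22.3 CPM in Spns1 KO and at 28.8, 24.0, 17.2 and 28.1 CPM in FeO. In Spns1 KO the lowest library only just overlapped the highest WT library, while FeO 3 lay under all WT libraries and the other 3 above. The log2 fold change was 0.25 in Spns1 KO against WT (SE 0.15, edgeR adjusted p = 0.239), 0.21 in FeO against WT (SE 0.15, edgeR adjusted p = 0.282) and 0.05 between the models (SE 0.16, edgeR adjusted p = 0.86). Among 17 tested genes of Rab5 endosomes, 3 rose and 3 fell in Spns1 KO against WT (17.6% each) and 4 rose and 3 fell in FeO against WT (23.5% and 17.6%). Rab5c rose by 0.74 in Spns1 KO (SE 0.18, edgeR adjusted p = 0.00781) and Rabgef1, the exchange factor of Rab5, fell by 0.62 (SE 0.17, edgeR adjusted p = 0.0159). In FeO, Rab4a, a GTPase of recycling endosomes, rose by 1.32 (SE 0.18, edgeR adjusted p = 0.000393).

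Lat, the immediate neighbour, was close to the detection limit, with 7 to 71 counts per library. WT 1 to 5 had 0.844, 0.678, 0.504, 0.495 and 0.849 CPM, the libraries labelled Spns1 KO 1 to 4 had 0.760, 1.43, 1.00 and 1.67 CPM, and FeO 1 to 4 had 0.230, 0.649, 0.710 and 1.35 CPM. Spns1 KO 2, 3 and 4 lay above all WT libraries and Spns1 KO 1 lay inside their range, and FeO spread to both sides of WT. The log2 fold change in Spns1 KO was 0.85 (SE 0.40, edgeR adjusted p = 0.141) and in FeO 0.11 (SE 0.42, edgeR adjusted p = 0.839), and between the models it was 0.73 (SE 0.43, edgeR adjusted p = 0.25). Summed T cell markers (12 genes) were at 7.68, 10.3, 9.28 and 17.4 CPM in Spns1 KO 1 to 4. The sums were 6.54 to 7.86 CPM in WT and 6.79, 4.96, 4.10 and 7.46 CPM in FeO 1 to 4. Cd3d was the largest part of the WT sums, with a mean of 3.08 CPM there, against 3.24 (Spns1 KO) and 0.76 (FeO). Trac went the other way, from a mean of 0.36 CPM (WT) to 1.70 (FeO), and the other markers in FeO lay on both sides of WT. The FeO sums thus depend on single genes. In Spns1 KO the mean of each of the 12 markers lay above that of WT, as for Cd4 (0.549 to 1.19 CPM) and Cd247 (0.214 to 0.652 CPM). Spns1 KO 4 and FeO 4 were the highest of their groups in both Lat and the T cell sum, whereas in WT the highest Lat was in WT 5 and the highest sum in WT 2, and FeO 3 had the second-highest Lat of FeO with the lowest sum. The part of T cells in the Lat values was not tested. Platelet and mast cell markers (8 genes), from the other cells that use LAT, summed to 49.1 to 53.2 CPM in WT, 25.9 to 40.8 CPM in Spns1 KO and 21.5 to 32.0 CPM in FeO, nearly all of it from Itga2b and Kit, while Fcer1a was at 0 in all 13 libraries and Gp9 in 12. Of 11 T cell markers tested, 3 rose in Spns1 KO against WT (27.3%, against 14% of all genes tested, list median 0.92). In FeO against WT 1 rose and 1 fell (9.09% each, against 22.4% and 19.7% of all genes, median 0.04). Of 11 tested partners of LAT signalling, 1 fell in Spns1 KO against WT (9.09%), and 1 rose and 3 fell in FeO against WT (9.09% and 27.3%). Sos1, a Ras exchange factor, fell by 0.56 and 0.95 on the log2 scale (SE 0.16 in each, edgeR adjusted p = 0.0199 and 0.000641), and Plcg1 fell by 0.77 in FeO (SE 0.15, edgeR adjusted p = 0.00128).

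Atp2a1, the muscle calcium pump, was barely detected, with 0 to 21 counts per library. It was at 0.572, 0.524, 0.283, 0.247 and 0.502 CPM in WT, at 0.268, 0.216, 0.134 and 0.425 CPM in Spns1 KO and at 0.197, 0.454, 0 and 0.450 CPM in FeO. The 0 of FeO 3 allows a level of up to 0.118 CPM (3 counts, counting error only). The groups overlapped, with log2 fold changes of -0.68 in Spns1 KO (SE 0.57, edgeR adjusted p = 0.40) and -0.61 in FeO (SE 0.59, edgeR adjusted p = 0.408) and a difference between the models of -0.07 (SE 0.62, edgeR adjusted p = 0.952). Skeletal muscle markers (13 genes) summed to 4.57 to 9.73 CPM in WT, 13.05 to 17.3 CPM in Spns1 KO and 9.05 to 26.4 CPM in FeO. Myh1 and Pvalb made up most of the sum, so the sums depend on single genes and are not a measure of muscle fibre content. Mean Pvalb went from 1.09 CPM (WT) to 7.20 (Spns1 KO) and 2.33 (FeO), and mean Myh1 from 2.67 to 4.43 and 10.6. Acta1 and Ckm, defining genes of the muscle fibre, were each under 1 CPM on average in every group. Neither of their means rose above WT, while other markers of the list lay on both sides of it. Mean Mylpf went from 0.338 CPM (WT) to 0.799 (Spns1 KO) and 0.399 (FeO), and mean Casq1 from 0.400 to 0.0912 and 0.111. Of 7 muscle markers tested, 2 rose in Spns1 KO against WT (median log2 fold change -0.07). In FeO against WT 1 rose and 1 fell (median -0.40). The part of muscle fibres and of Rabep2 reads in the Atp2a1 counts was not tested. Among 10 other SERCA pumps, regulators and store calcium genes tested, 1 rose in Spns1 KO against WT, and 4 rose (40.0%) and 1 fell in FeO against WT. Calr, a calcium-binding chaperone of the endoplasmic reticulum, rose by 0.82 in Spns1 KO and 1.80 in FeO on the log2 scale (SE 0.22 and 0.23, edgeR adjusted p = 0.0164 and 0.000337), and Atp2a3, another SERCA pump, rose by 0.81 in FeO (SE 0.19, edgeR adjusted p = 0.00391).

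**Figure D3:**
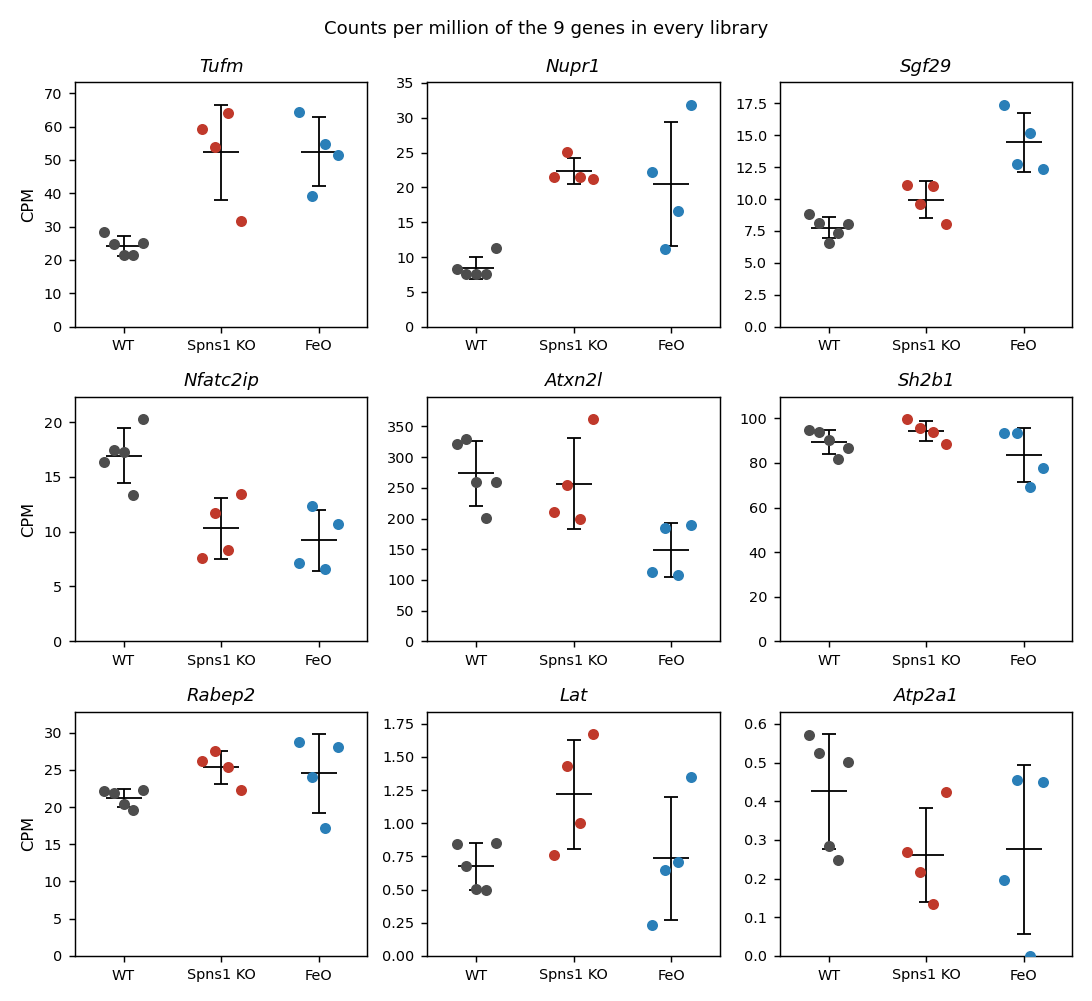
CPM (vertical axis, from 0) of each gene in each library, by group (horizontal axis), with the mean as a horizontal line and bars of 1 SD. Tufm and Sgf29 have all FeO libraries above all WT libraries, Nfatc2ip and Atxn2l have all FeO libraries below them, and Lat and Atp2a1 lie below 2 CPM.

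Levels can be compared between genes only per length, here as CPM per kb of the longest annotated transcript. In WT, Atxn2l came first at 68.0 CPM per kb (SD 13.1), followed by Sh2b1 at 26.3 (SD 1.60) and, with Spns1 at 17.1 (SD 2.92) between them, Tufm at 13.8 (SD 1.64). Rabep2 followed at 7.64 (SD 0.425), Sgf29 at 5.92 (SD 0.643), Nfatc2ip at 5.00 (SD 0.736) and Nupr1 at 3.46 (SD 0.651) CPM per kb. Lat at 0.328 (SD 0.0846) and Atp2a1 at 0.122 (SD 0.0429) came last. Among neighbours in this WT order, the ranges of Spns1 and Tufm, of Sgf29 and Nfatc2ip and of Nfatc2ip and Nupr1 overlapped and the others did not. With the median annotated transcript in place of the longest (514 against 1754 bases in Tufm, 578 against 2449 in Nupr1), a choice made after seeing the data, the WT levels became 83.0 for Atxn2l, 64.2 for Spns1, 47.1 for Tufm and 30.2 CPM per kb for Sh2b1, so that Spns1 and Tufm passed Sh2b1, and Nupr1 at 14.7 passed Nfatc2ip at 8.86. By the longest transcript again, in Spns1 KO, Tufm stood at 29.8 (SD 8.19) beside Sh2b1 at 27.8 (SD 1.34) CPM per kb, with overlapping ranges, and Nupr1 stood at 9.13 (SD 0.751) beside Rabep2 at 9.12 (SD 0.803). In FeO, Atxn2l at 37.0 (SD 11.0) overlapped Tufm at 29.9 (SD 5.91) CPM per kb.

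**Figure D4:**
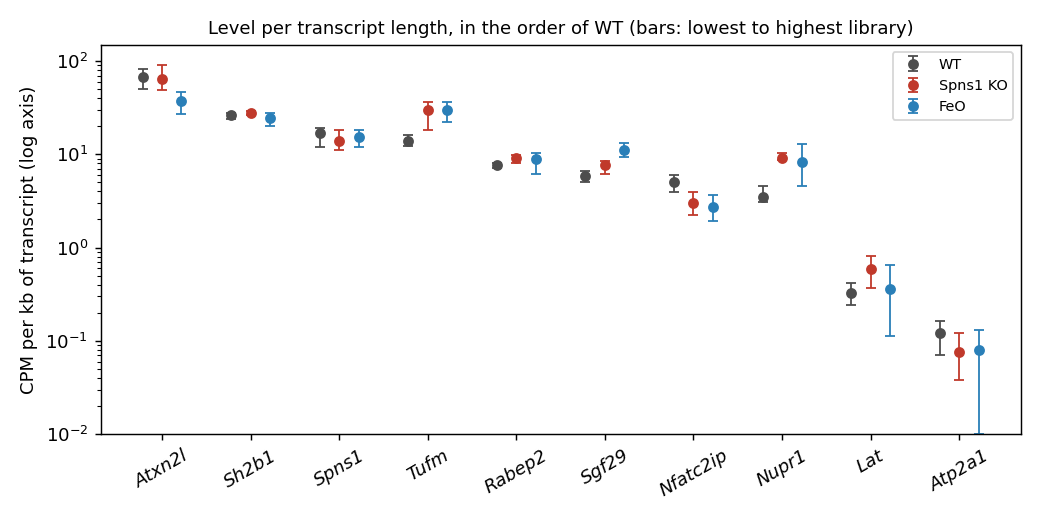
Mean CPM per kb of transcript (vertical log axis) of the 9 genes and Spns1, in the order of the WT means, with bars from the lowest to the highest library of each group. Nupr1 moves up in the order from WT to Spns1 KO, and the lower bar of Atp2a1 in FeO ends at the axis because 1 library was at 0.

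The position of the 9 genes was then set beside the other protein-coding genes that lie within 500 kb of Spns1. There were 23 of these, of which 19 were tested. In Spns1 KO against WT 5 rose (26.3% of the 19, with a median log2 fold change of 0.28), and in FeO against WT 8 rose and 1 fell (42.1% and 5.26%, median 0.48). Over 1272 tested protein-coding genes of chromosome 7, 16.7% rose and 5.11% fell in Spns1 KO against WT and 24.7% rose and 18.4% fell in FeO against WT. Of the members nearest to Spns1, Lat was not called and Nfatc2ip fell in both models. Aldoa, an enzyme of glycolysis 418 kb away, rose by 1.45 in FeO (SE 0.23, edgeR adjusted p = 0.00051) and 0.85 in Spns1 KO (SE 0.23, edgeR adjusted p = 0.0161). Bola2, which takes part in cytosolic iron-sulfur protein assembly, rose by 1.38 in Spns1 KO (SE 0.19, edgeR adjusted p = 0.000499) and 1.15 in FeO (SE 0.20, edgeR adjusted p = 0.000649). Mapk3, the kinase ERK1, rose by 0.76 and 1.33 in the same order (SE 0.18 in each, edgeR adjusted p = 0.00722 and 0.000384). Coro1a, an actin regulator of leukocytes, rose by 1.23 in Spns1 KO (SE 0.29, edgeR adjusted p = 0.00756). In FeO against WT, Gdpd3, a lysophospholipase D, rose by 1.07 (SE 0.28, edgeR adjusted p = 0.00733), Cln3, a lysosomal membrane protein, by 0.83 (SE 0.19, edgeR adjusted p = 0.00296) and Sult1a1, a sulfotransferase, by 0.75 (SE 0.22, edgeR adjusted p = 0.0114), and Sbk1, a kinase on the lower-coordinate side, fell by 0.75 (SE 0.28, edgeR adjusted p = 0.0394). Genes beside each other could differ in sign, as Tufm and Atxn2l did in FeO. Bola2 with Slx1b and Coro1a, Cln3 with Apobr, Sult1a1 with Sgf29 and Aldoa with Fam57b overlap on opposite strands, so their counts are uncertain to that extent.

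**Figure D5:**
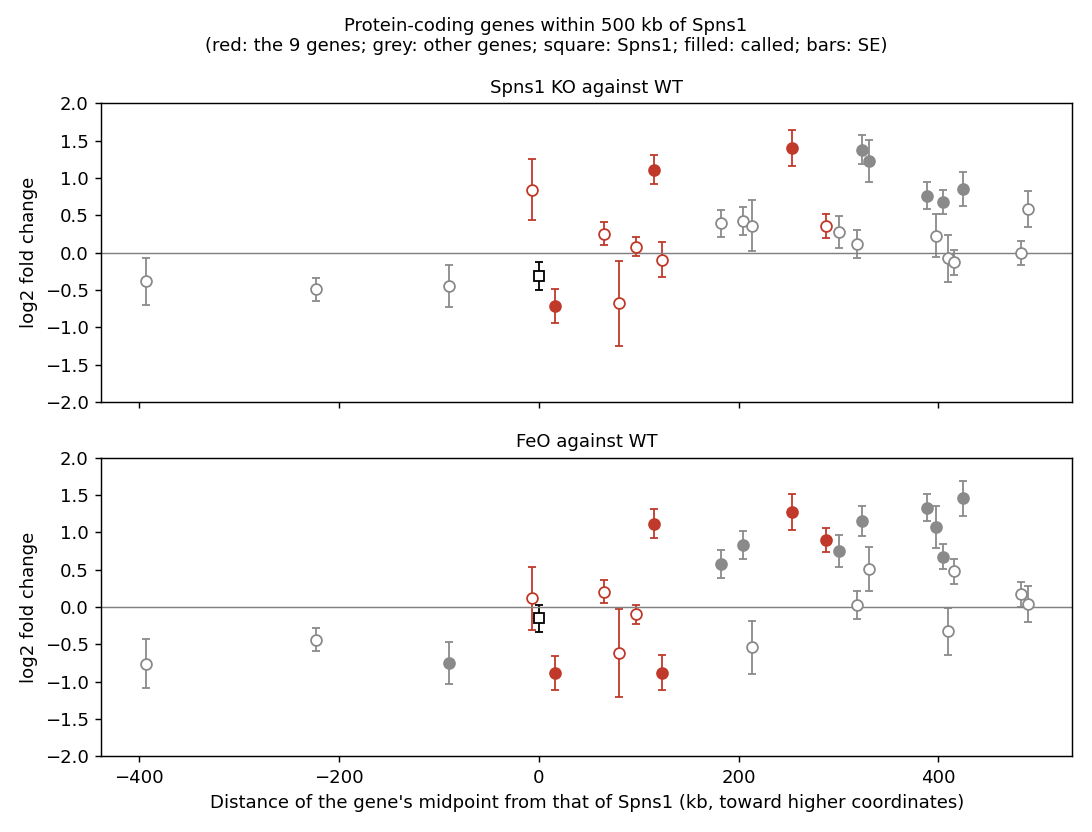
Log2 fold change (vertical axis, bars of 1 SE) of the tested protein-coding genes within 500 kb of Spns1 against the distance of their midpoint from that of Spns1 (kb, horizontal axis), in Spns1 KO against WT (top) and FeO against WT (bottom). The 9 genes are red, filled points are called, the square is Spns1 at -0.31 and -0.15, and 1 tested gene is not shown.

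The genes whose log2 CPM most resembled each member over the 13 libraries differed between members. Among 12207 other genes that averaged 100 counts or more, Tufm was most like Mdh2 and Rps3 (Pearson r of 0.99 each), and Sgf29 was most like Wdr45 and Rab4a (0.99 and 0.98). Nupr1 was most like Fxyd5 and Rab13 (0.98 each), Atxn2l was most like Prickle1 and Clk2 (0.98 each), and Nfatc2ip was most like Zfp346 and Blm (0.98 and 0.97). For the members with small differences the values were lower, at 0.93 and 0.93 for Rabep2 with Trim47 and H2-DMa and at 0.91 and 0.87 for Sh2b1 with Mib2 and Atad3a. Lat was most like Gm4739 and Hmgb2 (0.90 and 0.89) and Atp2a1 most like Ung and Erich1 (0.95 and 0.94). None of these 18 genes was another of the 9. These values describe 13 libraries that share group differences and the short-to-long offset, and with 12207 genes searched the highest values are high for any gene.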

How the data were processed

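The libraries measured 4-thiouracil-tagged, poly-A-selected kidney RNA in 13 samples. The authors deposited an estimated count per gene symbol and library, without normalization, held as whole numbers. The submitters' processing notes name bcl2fastq 2.19, kallisto 0.44.0, DESeq2 and GRCm38, whereas the methods describe Trimmomatic, STAR and HTSeq on mm10, so how a read shared by 2 genes was counted is not settled. The labels number the libraries of a group without saying that each came from a different mouse, so p-values measure the spread between these libraries, which may be technical. Whole-gene counts mix newly made RNA with any untagged RNA that stayed on the beads.

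Counts were fitted as deposited with edgeR 4.0.16 in R 4.3.3 (TMM, filterByExpr by group with a minimum count of 10, quasi-likelihood test, all 13 libraries in a single fit, no block), with Benjamini-Hochberg adjustment over the 16468 genes tested. Scaled counts are CPM. Alternatives were upper-quartile and DESeq2 size factors, DESeq2 1.42.0, limma 3.58.1 (voom), no filter, only the groups compared, a replicate block, a spline trend on length and GC content removed per library, and each library left out. Of 35013 symbols, 34688 had a transcript length in GENCODE M21. All 9 members had a RefSeq promoter entry.

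The members and gene lists were chosen with earlier results of these data known. Genes named were the members and Spns1, called genes within 500 kb (at most 8), at most 3 called genes per list and comparison that averaged 100 counts or more, and the 2 genes most like each member. Within these limits, examples were picked for the text, and the muscle markers were named after their values were seen. The values of 1 tested gene of the window are not reported here.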

Additional observations from a re-analysis of the deposited data

Results flagged for a closer look

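Nupr1 was at 25.1 CPM in the library labelled Spns1 KO 2, apart from 21.3 to 21.5 CPM in the other 3 of its group, and at 11.3 CPM in WT 5, apart from 7.56 to 8.28 CPM in the other 4. These were the 2 samples that stood far from their group by Dixon's criterion among 27 combinations of gene and group, and chance marks about 1 in 20 of them. The 2 models differed directly in Atxn2l, with a log2 fold change of 0.79 in Spns1 KO against FeO, and in Sgf29, with -0.54.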

How the results depend on the processing

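The counts of 2 genes up in Spns1 KO against WT and 3 up in FeO against WT, and the calls of Tufm and Nupr1, were kept or within 1.5 times under each alternative. Genes down in Spns1 KO against WT went from 1 to 0 with no filter and with the length and GC trend removed (0 to 1 with a library left out). In Spns1 KO against FeO, genes up went from 1 to 0 with only the 2 groups and with the replicate block, and genes down to 0 in these and with no filter (each 0 to 1 with a library left out). The cause was not tested.

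Signs turned only for genes that were not called. With the trend removed, Spns1 KO against WT gave -0.0299 for Sh2b1 and -0.10 for Sgf29, FeO against WT -0.15 for Lat, and Spns1 KO against FeO -0.0434 for Rabep2 and 0.0028 for Tufm. With voom, Lat gave -0.11 in FeO against WT and Atp2a1 0.53 in Spns1 KO against FeO, and with the replicate block Atp2a1 gave 0.0379. With a library left out, Atxn2l ran from -0.30 to 0.0124 in Spns1 KO against WT and Lat from -0.33 to 0.43 in FeO against WT. In Spns1 KO against FeO the ranges were -0.0888 to 0.14 for Rabep2, -0.46 to 0.30 for Atp2a1, -0.12 to 0.17 for Tufm and -0.0689 to 0.42 for Nupr1.

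Over all genes, down calls in Spns1 KO against WT went from 1243 to 793 with no filter and 795 with the trend removed, and in FeO against WT from 3252 to 2122 with the trend removed. With only the 2 groups, Spns1 KO against FeO had 441 up and 599 down in place of 1113 and 1334. The shares of all genes called thus depend on single libraries. Down calls in Spns1 KO against WT were 527, 525, 504 and 2677 without Spns1 KO 1 to 4 and 560 without WT 3, and up calls went from 2307 to 1531 without Spns1 KO 3. Up and down calls in Spns1 KO against FeO were 615 and 787 without Spns1 KO 1, 683 and 764 without Spns1 KO 2 and 545 and 636 without FeO 1, and up calls were 739 without FeO 3.

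Replicate numbers are shared between groups but did not pair the libraries (correlations of deviations from -0.30 to 0.26, and no library was most like its own number). The replicate block, fitted all the same, changed no other call of the 9 genes. Lat and Atp2a1 are limited by counts of 71 and 21 at most.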
